A study of Mus musculus with 6 samples.

Results

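Regulators of G protein signalling (RGS proteins) were examined in back skin of male C57BL/6 mice after repeated ultraviolet B (UVB) exposure. The genes were Rgs1, Rgs2, Rgs3, Rgs4, Rgs5, Rgs10, Rgs12, Rgs16, Rgs18 and Rgs19, and their probes were those carrying one of these 10 gene names on the array. They came to 18 probes of 55681 that were not array controls. The genes were chosen by the UVB against control differences of these same arrays, so the differences reported for them are a description and carry no test.

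All 6 mice were 6 to 8 weeks old and had their backs shaved. The 3 control mice were kept in the dark and received no UVB. From 2 days after shaving, the 3 UVB mice were anaesthetised and irradiated on the back at 180 mJ/cm2, 3 times a week for 2 weeks. Anaesthesia is given in the labels for the UVB mice. Each array carried the RNA of 1 mouse. No source used here says how long after the final irradiation the skin was taken. Skin, a mixture of cell types, was measured, so fewer cells of a type and less RNA per cell cannot be told apart.

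Heterotrimeric G proteins carry signals from seven-transmembrane receptors into the cell while their alpha subunit holds GTP. RGS proteins bind the active alpha subunit through a shared domain, the RGS box, and speed up the hydrolysis of GTP, which ends the signal. The small members of the R4 subfamily (Rgs1, Rgs2, Rgs4, Rgs5, Rgs16 and Rgs18, with the longer Rgs3) consist of little more than the box. Rgs10 and Rgs12 belong to the R12 subfamily and Rgs19 to the RZ subfamily. In skin, RGS genes are known from leukocytes, from vessel walls and from keratinocytes.

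Signals are given as log2 of the spot signal minus the 75th percentile of its own array, so 0 is the level below which 75% of the spots of that array lay. Signals of different probes are not on a common scale and are compared only between arrays. A probe entered the tests where the scanner software had called it well above background in 3 or more of the 6 mice. Of the 18 probes, 17 met this rule and 15 were well above background on all 6 arrays. At the level of genes, each represented by its tested probe with the highest mean, 9 of the 10 genes were measured and Rgs5 was not.

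The probes are 60 bases long and read different parts of the transcripts. The brighter Rgs2 probe and an Rgs3 probe read the same stretch of the RGS box in both genes and are shown to display how far these paralogs differ where the array tells them apart. Capitals mark the bases that the aligned probes share, 35 of 59 (59.3%), both read 5′ to 3′ in the sense of the gene.
Rgs2, mm9 chr1:145848830-145848889, minus strand: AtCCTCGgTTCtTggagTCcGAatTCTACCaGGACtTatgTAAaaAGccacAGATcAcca
Rgs3, mm9 chr4:62363208-62363267, plus strand: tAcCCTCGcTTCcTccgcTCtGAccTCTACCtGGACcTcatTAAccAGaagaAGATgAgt
Shared bases lie in short runs through the whole stretch, and no long run is common to both probes.

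Other probes hold the letters AATAAA, and where these lie in the transcript was not determined. The hexamer AATAAA, the usual polyadenylation signal, was found on the sense strand in 4 of the 18 probes, against 10.1% of all 55681 probes. The 30 bases around it, with the hexamer in capitals, are given from a probe each of Rgs3, Rgs4, Rgs12 and Rgs19, because 3 of these probes represent their gene in the values that follow.
Rgs3: agtgctgaggcaAATAAAaggcctgtgata
Rgs4: atgatgacagtaAATAAAtgcttcctacaa
Rgs12: ttcttccaagagaAATAAActctagagctc
Rgs19: tcttactgatccAATAAAaccaaagcacct
The Rgs4 probe with the hexamer was the dimmer one of that gene. On the plus strand, another tested Rgs12 probe (mm9 chr5:35376136-35376194) lay beyond the Rgs12 probe with the hexamer (mm9 chr5:35376032-35376091).

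Among the 9 measured genes, 6 were past the threshold of adjusted p under 0.05 and lower after UVB (Rgs1, Rgs2, Rgs10, Rgs12, Rgs18 and Rgs19), 1 was past it and higher (Rgs16), and Rgs3 and Rgs4 were not past it. Of all 24354 targets tested, 12.6% were past the same threshold, 7.01% lower and 5.55% higher. The median log2 fold change of the 9 genes was -0.73, beside -0.04 over all targets. The values of the 3 UVB arrays lay wholly above or below those of the 3 control arrays for 7 of the 9 genes, as they did for 38.5% of all targets. By probe, 11 of the 17 tested were past the threshold and lower and 1 was past it and higher. Of 33762 probes tested, 11.2% passed, 6.1% lower and 5.08% higher. The groups did not overlap for 13 of the 17 probes, beside 37.2% of all tested probes, and 21.5% of all had every UVB array below every control array. These counts used the contrast by which the genes were listed.

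**Figure D1:**
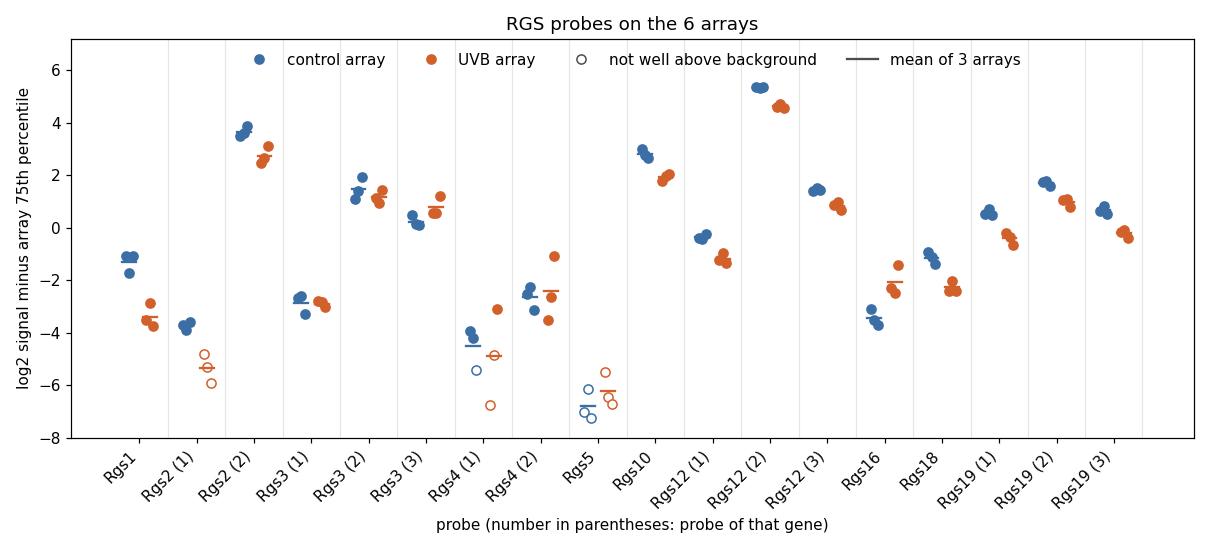
Log2 signal minus the array's 75th percentile (vertical axis) of the 18 RGS probes (horizontal axis) on 3 control and 3 UVB arrays; each point is 1 array, a line is the mean of 3 arrays, and open points were not well above background. The UVB points of Rgs1, Rgs2, Rgs10, Rgs12, Rgs18 and Rgs19 lie below all control points of the same probe, those of Rgs16 lie above, and those of Rgs4 are spread over the widest range.

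Rgs1, a regulator of lymphocytes that dampens their response to chemokines, showed the largest difference among the 9 genes. Its only probe (mm9 chr1:146091962-146092021, minus strand) read -1.06, -1.71 and -1.09 on the control arrays and -3.51, -2.88 and -3.75 on the UVB arrays. All UVB arrays lay below all control arrays, with UVB replicate 2 nearest to the controls. The log2 fold change was -2.09 ± 0.29 (limma standard error as throughout, n = 3 per group), or 4.26-fold lower. It ranged from -2.34 to -1.91 when any 1 array was left out and stayed past the threshold each time. The signal after UVB was dim, and with a normexp background correction the log2 fold change was -1.01.

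Rgs2, which acts mainly on Gq and is known for limiting vasoconstrictor signals, was read by 2 probes. The brighter one, in the RGS box sequence shown above, gave 3.51, 3.61 and 3.88 in controls and 2.48, 2.67 and 3.10 after UVB. The groups did not overlap, and UVB replicate 3 came nearest to the controls. The log2 fold change was -0.92 ± 0.20. It lay between -1.09 and -0.78 without any 1 array, but passed the threshold only when UVB replicate 3 was the array left out. The second probe (mm9 chr1:145847227-145847286) read -3.70, -3.89 and -3.58 in controls and did not stand well above background in any UVB mouse. Its signal was at least 1.97-fold lower after UVB, while with the normexp correction the same probe differed by -0.03, short of that bound. With no filter on dim probes the gene missed the threshold.

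Rgs18 is best known from platelets and their precursors, and its single probe (mm9 chr1:146600137-146600196, minus strand) read -0.93, -1.12 and -1.37 in controls. After UVB it read -2.39, -2.01 and -2.40. The groups were clear of each other, and the log2 fold change was -1.13 ± 0.18, or 2.19-fold lower. It was no longer past the threshold without control replicate 2 (-1.12) or without UVB replicate 1 (-1.07), and was -0.63 with the normexp correction. Of 8 platelet and megakaryocyte markers, 3 were tested and none of these passed the threshold. Their summed signal was 0.364 to 0.588 times the array's 75th percentile in controls and 0.504 to 0.618 after UVB. Itga2b, Gp9, Gp1ba, Ppbp and Gp6 were too dim to test.

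Rgs16, an inducible member that T cells raise on activation and that acts on Gi and Gq, was the 1 gene of the 9 that was past the threshold and higher. Its probe (mm9 chr1:155592244-155592303, plus strand) gave -3.11, -3.49 and -3.68 in controls and -2.28, -2.49 and -1.41 after UVB. Every UVB array lay above every control array, and UVB replicate 3 was the highest. The log2 fold change was 1.36 ± 0.31, or 2.57-fold higher. Without UVB replicate 3 it was 1.04 and still past the threshold, while without any 1 of the other 5 arrays it was 1.24 to 1.58 and not past it. With the normexp correction it was 0.87, and with no filter on dim probes it missed the threshold.

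Rgs3, a member with long and short isoforms, had 3 probes that did not move alike. The probe that represents the gene (mm9 chr4:62363993-62364052) read 1.10, 1.42 and 1.94 in controls and 1.15, 0.93 and 1.43 after UVB, a log2 fold change of -0.31 ± 0.25. The groups overlapped. The probe in the RGS box read 0.47, 0.13 and 0.11 in controls and 0.56, 0.55 and 1.22 after UVB. There the UVB arrays all lay above the controls, with a log2 fold change of 0.54 ± 0.23 that did not pass the threshold. The third probe, about which the file names a separate transcript (mm9 chr4:62320777-62320836), differed by -0.03 ± 0.22.

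Rgs4, best known from brain and heart, varied more between UVB mice than between the groups. Its brighter probe (mm9 chr1:171672488-171672547) read -2.54, -2.25 and -3.14 in controls and -3.51, -2.65 and -1.06 after UVB. UVB replicate 1 was the lowest of all 6 arrays and UVB replicate 3 the highest, and both held for the second probe too. The log2 fold change was 0.23 ± 0.61 and ranged from -0.44 without UVB replicate 3 to 0.78 without UVB replicate 1. The second probe gave -0.38 ± 0.91 and was well above background on 2 control arrays and 1 UVB array.

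Rgs5, a marker of pericytes, stayed at background in all 6 mice. Its probe (mm9 chr1:171623021-171623080) read -7.01, -6.12 and -7.25 in controls and -5.48, -6.46 and -6.70 after UVB, which has no order at this signal. Of 12 markers of pericytes and vascular smooth muscle, 7 were tested and none of these passed the threshold. Pdgfrb, Abcc9, Kcnj8, Myh11 and Des were, like Rgs5, too dim to test.

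The R12 and RZ genes differed by similar amounts in all of their probes. Rgs10, a small R12 member abundant in immune cells, read 3.02, 2.79 and 2.65 in controls and 1.78, 1.96 and 2.03 after UVB (mm9 chr7:135517256-135517315). The groups did not overlap, and the log2 fold change was -0.90 ± 0.15. It missed the threshold without control replicate 2 (-0.91) and without UVB replicate 1 (-0.82).

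Rgs12, which carries a PDZ domain, Ras-binding domains and a GoLoco motif beside its RGS box, had 3 probes on chromosome 5. The probe that represents it (mm9 chr5:35376032-35376091, plus strand) read 5.35, 5.34 and 5.35 in controls and 4.61, 4.73 and 4.55 after UVB. The control arrays were almost identical and the UVB arrays lay close together below them, with a log2 fold change of -0.72 ± 0.11. The other 2 probes gave -0.83 ± 0.15 and -0.61 ± 0.13, each with UVB arrays wholly below control arrays. The call of the gene was lost without control replicate 2 (-0.72) and without UVB replicate 1 (-0.71).

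Rgs19, an RZ member that binds Gi alpha subunits, also had 3 probes, on chromosome 2. The representing probe (mm9 chr2:181423128-181423187, minus strand) read 1.76, 1.77 and 1.59 in controls and 1.06, 1.10 and 0.79 after UVB, a log2 fold change of -0.73 ± 0.14. The others gave -0.89 ± 0.15 and -0.96 ± 0.16. UVB replicate 3 was the lowest array in all 3 probes, and no UVB array reached a control array. The call was lost when control replicate 1 (-0.70), control replicate 2 (-0.69) or UVB replicate 1 (-0.77) was omitted.

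**Figure D2:**
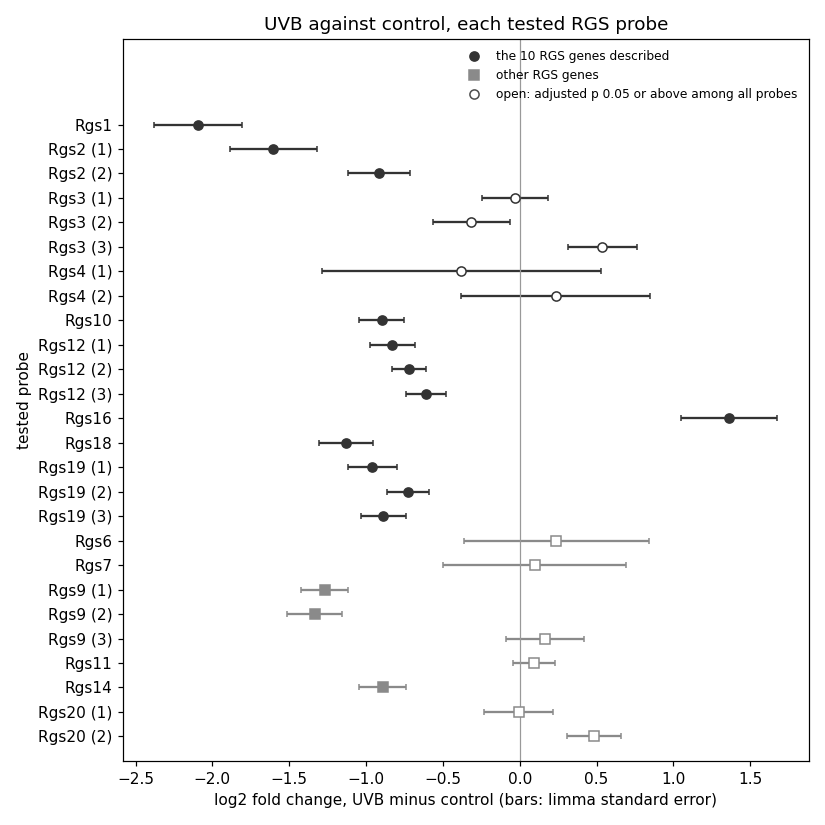
Log2 fold change, UVB minus control (horizontal axis), of each tested RGS probe (vertical axis); bars are limma standard errors, filled symbols passed adjusted p under 0.05 among all probes, circles are the 10 genes described and squares other RGS genes. The probes of Rgs2, of Rgs12 and of Rgs19 all lie below 0, while those of Rgs3, Rgs4, Rgs9 and Rgs20 fall on both sides.

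Markers of several cell types were lower on the same arrays as the lower RGS genes, among them markers of T cells, of Langerhans and dendritic cells, of basal keratinocytes and of Schwann cells. Others were higher, among them markers of the hair shaft and inner root sheath, of melanocytes, of fibroblasts and of suprabasal keratinocytes. For each list the summed signal is given in units of the array's 75th percentile, a sum that bright probes dominate. Of 8 tested T cell markers, 5 were lower (Cd3g by a log2 fold change of -2.05 ± 0.18, adjusted p = 0.00362, and Cd3d of -1.45 ± 0.16, adjusted p = 0.00533, limma), and the summed signal was 19.6 to 24.9 in controls and 12.7 to 18.2 after UVB. Cd8a, also a T cell marker, was dim in controls and at least 2.56-fold higher (adjusted p = 0.00806, limma), while under the normexp correction its log2 fold change was 0.65, short of that bound. Cd4 (0.80 ± 0.25) and Cd8b1 (0.56 ± 0.33) were higher without passing the threshold. Of the lower T cell markers, Lck and Cd3e lost their calls without any 1 array, under quantile normalization and in the deposited table. The Langerhans and dendritic cell list had 5 of 9 genes lower and none higher, with a summed signal of 201 to 235 in controls and 87.2 to 117 after UVB (Cd207 fell by 1.41 ± 0.18, adjusted p = 0.00832, limma). The others that fell were Cd74, H2-Ab1, H2-Eb1 and H2-Aa. H2-Aa lost its call without any 1 array, under quantile normalization and in the deposited table. H2-Eb1 lost it without control replicate 2 or UVB replicate 1, and Cd74 without control replicate 2. Itgax, Epcam, Flt3 and Zbtb46 did not pass the threshold.

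Macrophage markers did not move one way. Of 7 tested, 2 fell and 1 rose, and the median log2 fold change was -0.0085. Adgre1 had a log2 fold change of -1.88 ± 0.11 (adjusted p = 0.00178, limma), or -1.20 with normexp, and Csf1r of -1.52 ± 0.17 (adjusted p = 0.00605, limma), though the Csf1r probes ranged from -1.52 to -0.12. Lyz2 rose by 1.47 ± 0.34 (adjusted p = 0.0422, limma), or 0.63 with normexp, a call kept only without UVB replicate 3 (1.12 to 1.69 over all omissions) and lost under quantile normalization (adjusted p = 0.0519), in the deposited table (adjusted p = 0.0511) and with no filter on dim probes (adjusted p = 0.0636). C1qc (0.91 ± 0.37), C1qb (0.45 ± 0.14) and C1qa (-0.71 ± 0.28) did not pass the threshold. The summed signal of the list, 18.8 to 20.7 in controls and 6.28 to 9.12 after UVB, came to 90.5% to 92.6% in controls from the single Csf1r probe. Cd68, Cd163 and Fcgr1 were too dim to test. The neutrophil list had a summed signal of 25.9 to 69.4 in controls and 81.2 to 156 after UVB, and none of its 4 tested genes passed the threshold. The single S100a9 probe made up 75.2% to 77.9% of this sum in controls and 73.7% to 77.2% after UVB. Cxcr2 differed by 0.09 ± 0.27, and Mpo, Retnlg and Ltf were too dim to test.

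All 7 basal and all 7 suprabasal keratinocyte markers were measurable, as the skin label requires. Of the basal markers 3 fell and none rose, with a median of -0.48 and a summed signal of 1583 to 1977 in controls and 1448 to 1637 after UVB. The lowest adjusted p among them was that of Itga6 (-0.61 ± 0.12, adjusted p = 0.0251, limma), whose call was kept only without UVB replicate 2 (-0.68 to -0.57 over all omissions). Col17a1 and Trp63 lost their calls without any 1 array, and Trp63 was -0.17 as the mean of its probes (adjusted p = 0.403, limma). Krt5 (0.10 ± 0.14) and Krt14 (-0.30 ± 0.13) did not pass the threshold. Of the suprabasal markers 3 rose and none fell, with a median of 0.76. Ivl rose by 1.61 ± 0.15 (adjusted p = 0.00391, limma) and stayed past the threshold without any 1 array. Flg (3.70 ± 0.75, adjusted p = 0.0295, limma) kept its call only without control replicate 3. Lor lost its call under quantile normalization, under median scaling and in the deposited table (limma adjusted p of 0.0915, 0.0678 and 0.105). Krt1, Krt10, Sbsn and Dsg1a did not pass the threshold. Of 6 Schwann cell and nerve markers 3 fell and none rose, with a summed signal of 14.4 to 15.0 in controls and 5.54 to 7.52 after UVB (Ngfr fell by 2.67 ± 0.27, adjusted p = 0.00434, limma). The hair shaft and inner root sheath list had a summed signal of 18.7 to 21.3 in controls and 292 to 1134 after UVB. Of its 12 tested markers 9 rose and none fell, with a median log2 fold change of 7.87. Of 7 tested melanocyte markers 5 rose and none fell (median 2.40, summed signal 6.17 to 7.09 in controls and 19.7 to 29.3 after UVB). Of 7 tested fibroblast markers 4 rose and none fell (median 1.47, summed signal 7.18 to 14.4 in controls and 19.4 to 28.7 after UVB). Col1a1 lost its call without control replicate 1 or without any UVB array. Col1a2 and Col3a1 kept theirs only without control replicate 2, and Fbln1 only without UVB replicate 3. Fbln1 also missed the threshold under median scaling and with the mean of its probes. The part of any of these cells in the lower Rgs1, Rgs2, Rgs10, Rgs12, Rgs18 and Rgs19 signals, or in the higher Rgs16 signal, was not tested.

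Of the other RGS genes, 11 of 12 on a list were on the array with 16 probes, and 6 were tested. Rgs9 and Rgs14 fell, none rose, and the median log2 fold change was 0.04. Rgs9, an R7 member known from photoreceptors and striatum, read -2.15, -2.29 and -2.61 in controls and -3.68, -3.55 and -3.62 after UVB. The groups were separate, and the log2 fold change was -1.27 ± 0.15 (adjusted p = 0.00703, limma). It stayed past the threshold without any 1 array (-1.40 to -1.17) and was -0.81 as the mean of its probes, but with the normexp correction was -0.36 and missed it (adjusted p = 0.0647). An overlapping probe gave -1.33 ± 0.18, while the last one, assigned to another transcript of the gene, gave 0.16 ± 0.25 (adjusted p = 0.706, limma).

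Rgs14, the third R12 member, read -0.42, -0.40 and -0.77 in controls and -1.28, -1.44 and -1.55 after UVB. Its UVB arrays were all lower, with a log2 fold change of -0.89 ± 0.15 (adjusted p = 0.0187, limma). The call was lost when control replicate 1 (-0.83), control replicate 2 (-0.83), UVB replicate 1 (-0.96) or UVB replicate 2 (-0.88) was omitted. Rgs6 (0.24 ± 0.60), Rgs7 (0.10 ± 0.60), Rgs11 (0.09 ± 0.13) and Rgs20 (-0.01 ± 0.22) did not pass the threshold, with adjusted p of 0.821, 0.931, 0.675 and 0.987. A second Rgs20 probe, which overlaps the first, gave 0.48 ± 0.18 (adjusted p = 0.128, limma), with all UVB arrays above all control arrays. Rgs8, Rgs13, Rgs17, Rgs21 and Rgs22 were too dim to test.

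The RGS genes of mouse chromosome 1 include 6 of the 10 described. Rgs2, Rgs13, Rgs1, Rgs21 and Rgs18 follow each other with no other protein-coding gene between them in the GRCm38.p6 gene table. The 3 of these that were measured were past the threshold and lower after UVB, as were 7.01% of all targets. They were listed by this same contrast, and Rgs16, elsewhere on chromosome 1, was higher. Of the 5 genes on either side, 8 were tested and 3 passed the threshold, beside 12.6% of all targets. Ptgs2, the inducible cyclooxygenase, fell by 1.95 ± 0.28 (adjusted p = 0.0116, limma) and missed the threshold only without UVB replicate 1, with values of -2.17 to -1.64 over all omissions and -1.27 under the normexp correction. B3galt2 fell, from a dim signal, by at least 1.48-fold (adjusted p = 0.0342, limma). Under the normexp correction its log2 fold change was 0.011, short of that bound and not past the threshold. B3galt2 also lost its call when any of control replicates 1 and 2 and UVB replicates 1 and 2 was omitted. Ro60 rose by 0.60 ± 0.12 (adjusted p = 0.0307, limma), a call lost without any 1 array (0.53 to 0.64).

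Rgs5 and Rgs4 lie side by side on the same chromosome, where Rgs5 was too dim to test and Rgs4 did not pass the threshold. Of the 5 genes on either side of these, 8 were tested and 1 passed the threshold. That gene, Uap1, fell by 0.59 ± 0.13 (adjusted p = 0.0370, limma), a call lost without any 1 array.

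**Figure D3:**
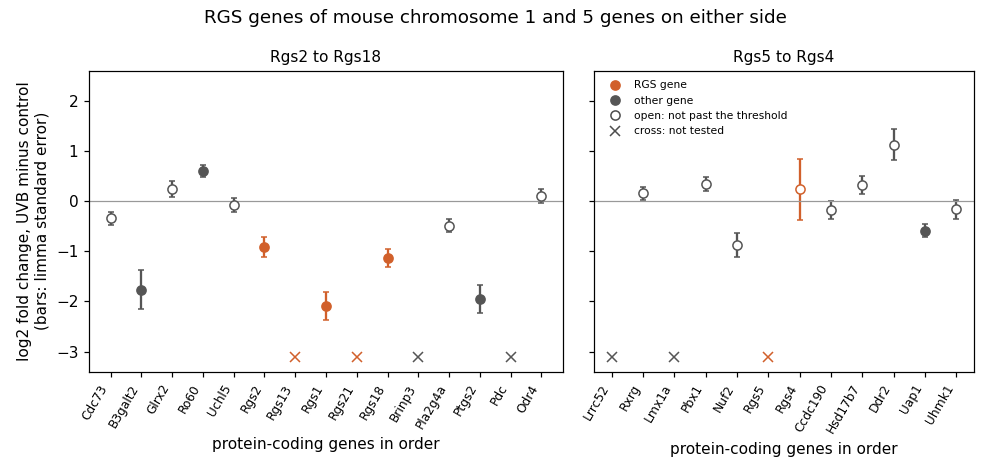
Log2 fold change, UVB minus control (vertical axis, bars are limma standard errors), of protein-coding genes in their order on chromosome 1 (horizontal axis) around 2 groups of RGS genes; filled points passed adjusted p under 0.05, open ones did not, and crosses mark genes that were too dim to test or had no tested probe. Rgs2, Rgs1 and Rgs18 lie below 0 between neighbours of either sign, and the bar of Rgs4 spans 0.

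Promoter sequence was compared for Rgs2 and Rgs16, R4 genes of one chromosome whose signals differed in opposite directions. RefSeq windows on GRCm38.p6 matched 8 of the 10 genes, with 12 windows, and none was matched to Rgs1 or Rgs18. Of each, the 250 bases before the start were searched on both strands for letters of 5 known elements. Among 32851 windows of the same length, TATAAA of the TATA box was found in 12.4%, CCAAT of the CAAT box in 33.8%, GGGCGG of the GC box in 32.7%, CGTCA of the cyclic AMP response element in 17.8% and TGANTCA of the AP-1 site in 6.75%. Matches are in capitals, each sequence is read 5′ to 3′ on the gene's strand.
Rgs2, chr1:144004150-144004399, minus strand: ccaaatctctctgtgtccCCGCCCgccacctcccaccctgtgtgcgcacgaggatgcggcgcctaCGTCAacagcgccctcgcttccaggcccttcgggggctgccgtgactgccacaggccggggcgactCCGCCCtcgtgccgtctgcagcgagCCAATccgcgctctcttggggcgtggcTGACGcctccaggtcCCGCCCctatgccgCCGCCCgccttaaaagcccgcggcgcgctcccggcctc
Rgs16, chr1:153740103-153740352, plus strand: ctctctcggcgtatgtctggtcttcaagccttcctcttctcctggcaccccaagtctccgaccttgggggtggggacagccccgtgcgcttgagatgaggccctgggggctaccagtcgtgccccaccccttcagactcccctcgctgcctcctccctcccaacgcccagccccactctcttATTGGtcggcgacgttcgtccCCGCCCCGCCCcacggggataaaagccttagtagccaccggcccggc
The Rgs2 window held GGGCGG 4 times, CGTCA 2 times and CCAAT 1 time. The Rgs16 window held CCAAT 1 time and GGGCGG 2 times, the last pair overlapping by 1 base in the printed run of capitals, and no CGTCA. Both windows were GC-rich, at 72.4% and 66.4% against a median of 52.4% over all windows, and neither held TATAAA or TGANTCA. A match in these letters is no evidence of binding.

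The wider pathway was described by 9 lists of 133 genes, of which 97 were tested, 8 rose and 20 fell. This was 28.9% of the tested genes, beside 12.6% of all targets. Of these 28 genes, 8 stayed past the threshold without any 1 array: Rgs9, Gna14, Gng11, Grk3, Adcy5, Cx3cr1, F2r and Avpr1a. When probes were not filtered for dim signal, Arhgef11, Gnas, Gng3, Arrb1, Grk6, Gpsm3, Ric8b and F2rl1 of the genes named here missed the threshold, with limma adjusted p of 0.0529 to 0.0808.

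Among the G protein alpha subunits, on which RGS proteins act, 3 of 14 tested fell and none rose, with a median log2 fold change of -0.39. Gna14, a Gq family subunit, read 0.13, -0.17 and -0.06 in controls and -2.05, -1.87 and -1.48 after UVB, a log2 fold change of -1.77 ± 0.18 (adjusted p = 0.00461, limma). The groups lay far apart, and the value ranged from -1.93 to -1.64 without any 1 array. Gnaq, the Gq subunit itself, fell by 0.74 ± 0.13 (adjusted p = 0.0183, limma), a call lost without control replicate 2 (-0.70) or UVB replicate 1 (-0.66). Gnas, the stimulatory subunit, fell by 0.57 ± 0.14 (adjusted p = 0.0445, limma), a call lost without any 1 of the 6 arrays (-0.64 to -0.50), under median scaling (adjusted p = 0.0615) and with the mean of its probes (adjusted p = 0.107).

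Of 14 tested beta and gamma subunits, 2 rose and 1 fell. Gng11 rose by 1.38 ± 0.21 (adjusted p = 0.0127, limma). Gngt2 fell by 1.11 ± 0.18 (adjusted p = 0.0155, limma), a call lost without control replicate 2, with values of -1.20 to -0.93 over all omissions. Gng3 rose by 0.53 ± 0.12 (adjusted p = 0.0406, limma), a call lost without each array but UVB replicate 3 (0.46 to 0.61) and under quantile normalization (adjusted p = 0.102), median scaling (adjusted p = 0.137), the deposited table (adjusted p = 0.0978) and the other eBayes setting (adjusted p = 0.233).

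Receptor kinases and arrestins, which switch off receptors upstream of the G protein, had 3 of 7 lower and none higher. Grk3 read -0.16, -0.15 and -0.42 in controls and -1.86, -1.78 and -1.71 after UVB, a log2 fold change of -1.54 ± 0.13 (adjusted p = 0.00323, limma). All UVB arrays were lower and close together, and the second probe of this gene gave -1.13. Arrb1, a beta-arrestin, fell by 0.67 ± 0.14 (adjusted p = 0.0297, limma), lost without any array but UVB replicate 3 (-0.74 to -0.59). Grk6 fell by 0.68 ± 0.16 (adjusted p = 0.0448, limma), lost without any 1 array (-0.76 to -0.54) and under median scaling (adjusted p = 0.0521).

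Of 11 proteins that share or anchor the RGS fold, 2 fell, the RhoGEFs Arhgef1 (-0.66 ± 0.13, adjusted p = 0.0253, limma) and Arhgef11 (-0.53 ± 0.12, adjusted p = 0.0371, limma). Arhgef1 kept its call only without UVB replicate 3 (-0.71 to -0.57) and Arhgef11 lost it without any 1 array (-0.59 to -0.48). Of 8 other modulators, Gpsm3 (-0.60 ± 0.12, adjusted p = 0.0259, limma) and Ric8b (-0.54 ± 0.11, adjusted p = 0.0299, limma) fell, both lost without any 1 array (-0.65 to -0.55 and -0.58 to -0.49). Gpsm1 rose by 0.86 ± 0.17 (adjusted p = 0.0271, limma), kept only without control replicate 3 (0.75 to 1.00).

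Of 10 tested effectors, 1 rose and 1 fell. Adcy5, an adenylyl cyclase, was not well above background in controls and was at least 2.83-fold higher after UVB (adjusted p = 0.0100, limma). Under the normexp correction its log2 fold change was 0.69, short of that bound. Plcb4, a phospholipase C that Gq switches on, fell by 1.40 ± 0.22 (adjusted p = 0.0147, limma). Its call was lost without control replicate 2 or UVB replicate 1 (-1.64 to -1.27), and its probes ranged from -1.40 to -0.50.

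Chemoattractant receptors, which signal mainly through Gi, included 3 lower and 2 higher genes among 15 tested, with a median of 0.05. Cx3cr1, the fractalkine receptor, fell by 1.35 ± 0.14 (adjusted p = 0.00454, limma), or -0.79 under the normexp correction. Ccr4 fell by 1.33 ± 0.21 (adjusted p = 0.0152, limma), lost without control replicate 2 (-1.51 to -1.12). Ccr7 fell by 1.80 ± 0.36 (adjusted p = 0.0272, limma), lost without any control array or UVB replicate 1 (-2.16 to -1.48). Cxcr3 rose by 1.10 ± 0.21 (adjusted p = 0.0255, limma), lost without any control array or UVB replicate 1 (0.90 to 1.29).

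Vasoactive and adrenergic receptors included 3 lower and 2 higher among 12 tested. F2r, the thrombin receptor, read 1.58, 1.40 and 1.59 in controls and -0.22, 0.03 and 0.11 after UVB, a log2 fold change of -1.56 ± 0.14 (adjusted p = 0.00356, limma). No UVB array came near the controls. Avpr1a, a vasopressin receptor, fell by 1.99 ± 0.27 (adjusted p = 0.0099, limma), or -1.22 under the normexp correction. Ednrb, an endothelin receptor, rose by 0.80 ± 0.12 (adjusted p = 0.0129, limma), lost without control replicate 2 or UVB replicate 1 (0.75 to 0.87). F2rl1 fell by 0.80 ± 0.18 (adjusted p = 0.0361, limma), or -0.45 under the normexp correction, kept only without control replicate 1 (-0.96 to -0.67).

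**Figure D4:**
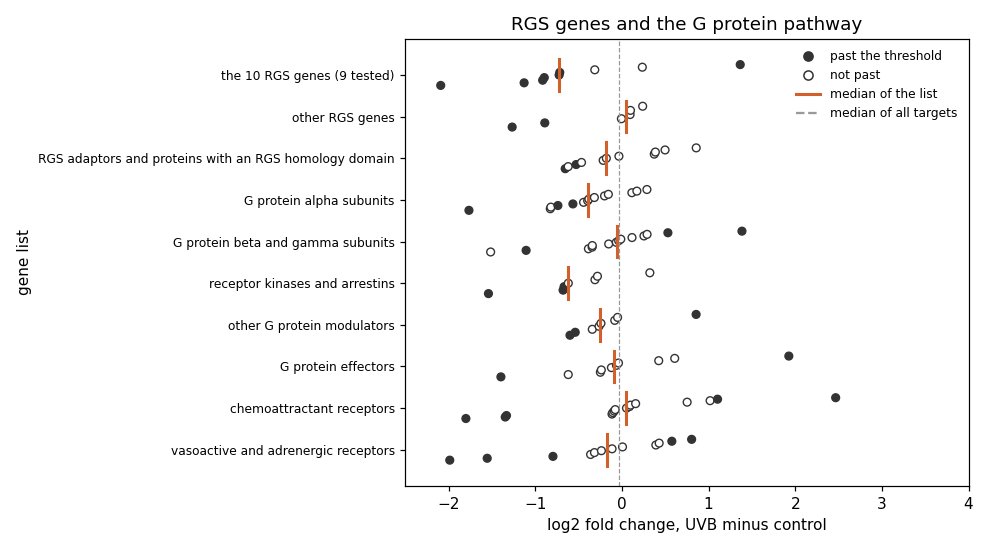
Log2 fold change, UVB minus control (horizontal axis), of each tested gene in the 10 RGS genes and in 9 lists of the G protein pathway (vertical axis); filled points passed adjusted p under 0.05, the coloured line is the median of a list and the dashed line that of all targets. The RGS genes have their median at -0.73, and the other lists lie between -0.62 (receptor kinases and arrestins) and 0.05 (chemoattractant receptors).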

How the data were processed

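RNA of back skin from 3 control and 3 UVB mice was labelled with Cy3 from 0.2 µg and hybridised to 1-colour Agilent arrays. Per the labels each array was a separate mouse. A single slide with 1 scan time held all 6 arrays. Per the file headers, the authors read the deposited spot intensity with Agilent Feature Extraction 10.7.1.1. The authors also deposited a table of log2 values, whose sorted columns were alike within 0.00212 with a median of 4.96. The sources used here do not say how it was made, and it served as an alternative.

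The log2 of the processed intensity had the 75th percentile of 59305 spots per array subtracted (signals 302 to 519), which was lower on each UVB array than on each control array. No spot was saturated, 54.9% to 63.3% were well above background, and 135 to 274 flagged spots per array were left out. Probes took names from a RefSeq table (26582 by accession, 3094 by symbol, 26005 kept the file's name), which was used for names and gene order. Groups were compared with limma 3.58.1 in R 4.3.3 (two-sided moderated test by lmFit and eBayes, calls at a Benjamini-Hochberg adjusted p under 0.05), and the script was tested on simulated data. Where no array of a group read a probe well above background, a bound against the lowest signal well above background is given. The genes and lists were chosen with earlier results of these data known. Named are all RGS genes, up to 4 genes per pathway list and 2 per marker list by smallest adjusted p, and genes that lie next to the RGS genes. Further markers are named where they limit the reading of a list. The precision is limited by the number of arrays.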

Additional observations from a re-analysis of the deposited data

How the results depend on the processing

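Over all targets, 3058 passed the threshold, and the count was 5041 with normexp background correction (2551 higher, 2490 lower). Without any 1 array it was 859 (control replicate 2) to 1907 (UVB replicate 3). The other settings, quantile normalization, median scaling, the deposited table, averaging a gene's probes, testing dim probes too and another eBayes setting, kept it within 1.5 times. Of the 9 RGS genes, 7 passed. Without any 1 array the count was 1 to 7, with 1 of them, Rgs1, past it without control replicate 2 or without UVB replicate 1, and 4 without control replicate 1. It was 12 of 17 when counted by probe, and 5 with no filter on dim probes, where Rgs2 and Rgs16 missed the threshold. The 28 pathway genes became 8 to 21 without any 1 array.

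Replicate numbers did not pair the mice: the deviations from the group means of same-numbered arrays correlated at -0.11, -0.26 and -0.08. With the replicate number as a block, 773 targets passed (472 higher, 301 lower), 0 of the 9 RGS genes and 7 of the pathway genes. The slide as a block was not run, since all arrays lay on 1 slide.

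The RGS genes whose values changed sign had not passed the threshold. Rgs3 was 0.064 and Rgs4 -0.072 with the mean of probes, and Rgs4 ran from -0.44 (without UVB replicate 3) over -0.016 (without control replicate 3) to 0.78 (without UVB replicate 1). Rgs6 was -0.26 without control replicate 1, -0.053 without UVB replicate 3 and up to 0.77 without UVB replicate 2. Rgs7 was -0.0041 with median scaling, -0.29 without control replicate 2, -0.43 without UVB replicate 2 and up to 0.62 without UVB replicate 3. Rgs11 was -0.0086 with median scaling. Rgs20 was 0.060 with quantile normalization, 0.037 in the deposited table, 0.24 with the mean of probes, 0.23 without control replicate 3 and 0.079 without UVB replicate 3. Median scaling moved the median of all targets to -0.14, normexp to 0.08 and no filter to 0.10, from -0.04. Rgs12 was -0.82 with median scaling and -0.83 with normexp, and Rgs2 -1.26 with the mean of its probes. The cause was not tested. Signals near background limit Rgs1, Rgs16, Rgs18 and the dimmer probes of Rgs2 and Rgs4.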

Other observations

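For each RGS gene that was measured, the 3 named genes whose values followed it most closely over the 6 arrays, after the group means were taken off, were listed among 15920 genes as a description. They were Gtpbp3, Vmn2r4 and 2900026A02Rik for Rgs1, Gpr146, Rmnd5a and Gm12216 for Rgs2, Megf6, Nck2 and Sprr4 for Rgs3, and Tmem260, Foxp1 and Hlx for Rgs4. For Rgs10 they were Olfr555, Tmtc4 and P2rx2, for Rgs12 Pik3r5, Fthl17a and Rpl39, for Rgs16 Rasl11b, Map1s and Scml2, for Rgs18 Ero1b, Cdpf1 and Ppp1r11, and for Rgs19 Cdca3, Gbp2 and Tma7. With 6 arrays that share their scaling, 251 (Rgs2) to 633 (Rgs19) genes followed an RGS gene with a correlation above 0.9, so that no likeness of this kind is particular to the genes named.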
